A study of Homo sapiens with 8 samples.

Results

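The 10 genes described here are the core of the Notch pathway in KYSE70 cells, an established line of human esophageal squamous cell carcinoma. They are the receptors NOTCH1, NOTCH2 and NOTCH3, the ligands JAG1, JAG2 and DLL1, and the targets HES1, HES4, HEY1 and NRARP. They were taken by symbol from a deposited table of 28281 genes, all 10 were found, and all 10 passed the filter on low values described below.

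Notch receptors are single-pass proteins of the cell surface that are activated by ligands of the Jagged and Delta families on a neighbouring cell. Ligand binding exposes the receptor to a metalloprotease and then to gamma-secretase, which frees the intracellular domain. That domain enters the nucleus, joins the DNA-binding protein RBPJ and a Mastermind coactivator, and switches on HES and HEY repressors and the feedback inhibitor NRARP. In stratified squamous epithelium the pathway is known for moving cells out of the basal layer into differentiation, and NOTCH1 is a recurrent target of inactivating mutations in squamous carcinomas of the esophagus.

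Total RNA was sequenced from untreated KYSE70 cells (n = 3), from cells given 10 µM pyrimethamine (n = 2) and from cells given 20 nM mitoxantrone (n = 3), with 72 h of treatment. Pyrimethamine is an antifolate used against parasites, and mitoxantrone, a cytotoxic drug, traps topoisomerase II on DNA. The series title names both as inhibitors of NRF2, the transcription factor of the antioxidant response. The labels name no genetic change, give 1 serum-containing medium for all groups, and name neither a vehicle nor a time for the untreated group. The labels do not say whether replicates are separate cultures, so p-values measure the spread between these libraries, which may be technical.

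The libraries held 17555689 to 24774358 reads assigned to genes, recovered from the deposited values. All 8 markers of squamous epithelium were above 10 normalised read counts in untreated cells, with sums of 120458 to 127666 in untreated, 95428 to 95481 in pyrimethamine and 94021 to 94712 in mitoxantrone libraries. Of 6 fibroblast markers 3 passed that level, with sums of 1101 to 1210, 1847 to 2054 and 447 to 590 in the same order. Single genes passed it among 5 leukocyte markers (CD68, lists summing to 53.2 to 67.4, 103 to 132 and 119 to 156) and among 6 endothelial markers (VWF, lists summing to 70.8 to 96.4, 182 to 353 and 92.7 to 203). The squamous sums hide single markers, of which KRT5 was the largest (mean 81811 untreated). With mitoxantrone the means of KRT5, KRT14, KRT6A, TP63 and DSG3 (3161 to 657) were lower. Those of KRT17, SFN and PERP (9222.5 to 20787) were higher. No marker in the table was at 0 in every library, and the part of these lists in the Notch results was not tested. The change of a gene from the untreated mean followed its summed exon length, with rank correlations over 14021 genes of -0.37 to -0.39 in the mitoxantrone libraries. The pyrimethamine libraries went opposite ways, with 0.326 in replicate 1 and -0.372 in replicate 2, so the pyrimethamine values of the 10 genes are given for both libraries. For the 3 untreated libraries the correlations were -0.121, 0.0638 and 0.0357.

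The targets HES1, HES4 and NRARP have start sites whose upstream bases show what the pathway's DNA-binding protein could read, and they are printed because the 3 genes differ below in direction on the deposited scaling. They were chosen for that, so the sequences bear on no test of it. Each sequence is the 250 bases before the annotated start, 5′ to 3′ on the gene's strand, from RefSeq on GRCh38.p14: chr3:194135898-194136147 (plus strand) for HES1, chr1:1000098-1000347 (minus strand) for HES4 and chr9:137302272-137302521 (minus strand) for NRARP. The RefSeq starts differ from the gene coordinates given below, most for HES4, whose window reaches into the gene as placed there (998962 to 1000172). Positions of letters are counted from the RefSeq start. Capitals in HES1 and HES4 mark the longest run of letters that both windows share, and in HES1 also the further copy of TGGGAA.
HES1: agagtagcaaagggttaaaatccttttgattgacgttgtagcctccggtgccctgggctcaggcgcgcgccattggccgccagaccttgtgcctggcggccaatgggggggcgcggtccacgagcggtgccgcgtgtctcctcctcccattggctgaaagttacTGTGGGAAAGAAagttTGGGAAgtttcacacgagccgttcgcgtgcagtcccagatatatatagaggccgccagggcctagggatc
HES4: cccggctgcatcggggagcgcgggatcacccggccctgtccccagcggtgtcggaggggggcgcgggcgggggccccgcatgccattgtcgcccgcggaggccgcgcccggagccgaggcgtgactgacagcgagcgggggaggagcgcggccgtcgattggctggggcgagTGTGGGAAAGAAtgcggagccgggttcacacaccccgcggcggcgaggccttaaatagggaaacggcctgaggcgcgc
NRARP: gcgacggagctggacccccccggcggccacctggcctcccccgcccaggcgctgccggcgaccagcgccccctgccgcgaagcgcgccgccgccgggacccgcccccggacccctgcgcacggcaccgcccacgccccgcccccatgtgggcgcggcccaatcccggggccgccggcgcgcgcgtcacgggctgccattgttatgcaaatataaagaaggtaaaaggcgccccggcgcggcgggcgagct
RefSeq windows of 250 bases before to 50 after the start were found for 8 of the 10 genes. DLL1 and HEY1 are named only. The core letters of RBPJ sites, TGGGAA on either strand, were in 24.3% of 27305 promoter windows and in 2 of the 8 Notch windows, at -84 and -70 from the start in HES1 and at -76 in HES4. The longer form GTGGGAA, which overlaps the core, was in 6.28% of all windows and in the same HES1 and HES4 windows. The shared run of 12 bases, TGTGGGAAAGAA, lay at -86 in HES1 and -78 in HES4 and was in 7 of the 27305 windows. The N-box letters of HES repressors, CACNAG on either strand, were in 38.0% of all windows and in 5 of the 8 (NOTCH1, NOTCH2, NOTCH3, HES1 and NRARP). These matches are letters in a window and were not measured as binding.

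In untreated cells the order of the 10 genes could be read only after division by length, here the summed exon length in kilobases (kb). Values are normalised read counts, which are gene counts that the authors divided by a size factor for each library. JAG1 (675 ± 33.3 per kb, SD, n = 3) and NRARP (657 ± 43.7 per kb) stood highest and overlapped. HES1 (473 ± 27.9 per kb) and JAG2 (472 ± 25.5 per kb) overlapped next, followed by HES4 (419 ± 33.9 per kb) and DLL1 (284 ± 15.6 per kb). NOTCH1 (131 ± 4.90 per kb) and HEY1 (128 ± 16.2 per kb) overlapped, above NOTCH2 (94.0 ± 0.78 per kb) and NOTCH3 (13.9 ± 0.93 per kb). NOTCH2 was at 133 per kb of its longest transcript, so its order against NOTCH1 and HEY1 depends on the length used. Ligands and targets thus had more reads per kb than any receptor, apart from HEY1. With mitoxantrone the order opened with HES4 (809 ± 34.1 per kb, n = 3) and HES1 (499 ± 76.2 per kb), ahead of NRARP (270 ± 61.3 per kb) and JAG1 (196 ± 40.2 per kb). NOTCH3 (4.75 ± 0.74 per kb) remained lowest. HES4 and HES1 have the shortest summed exons of the 10 genes (1040 and 1578 bases). Division by length does not remove the trend of the mitoxantrone libraries with exon length, so this order may depend on that trend.

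**Figure D1:**
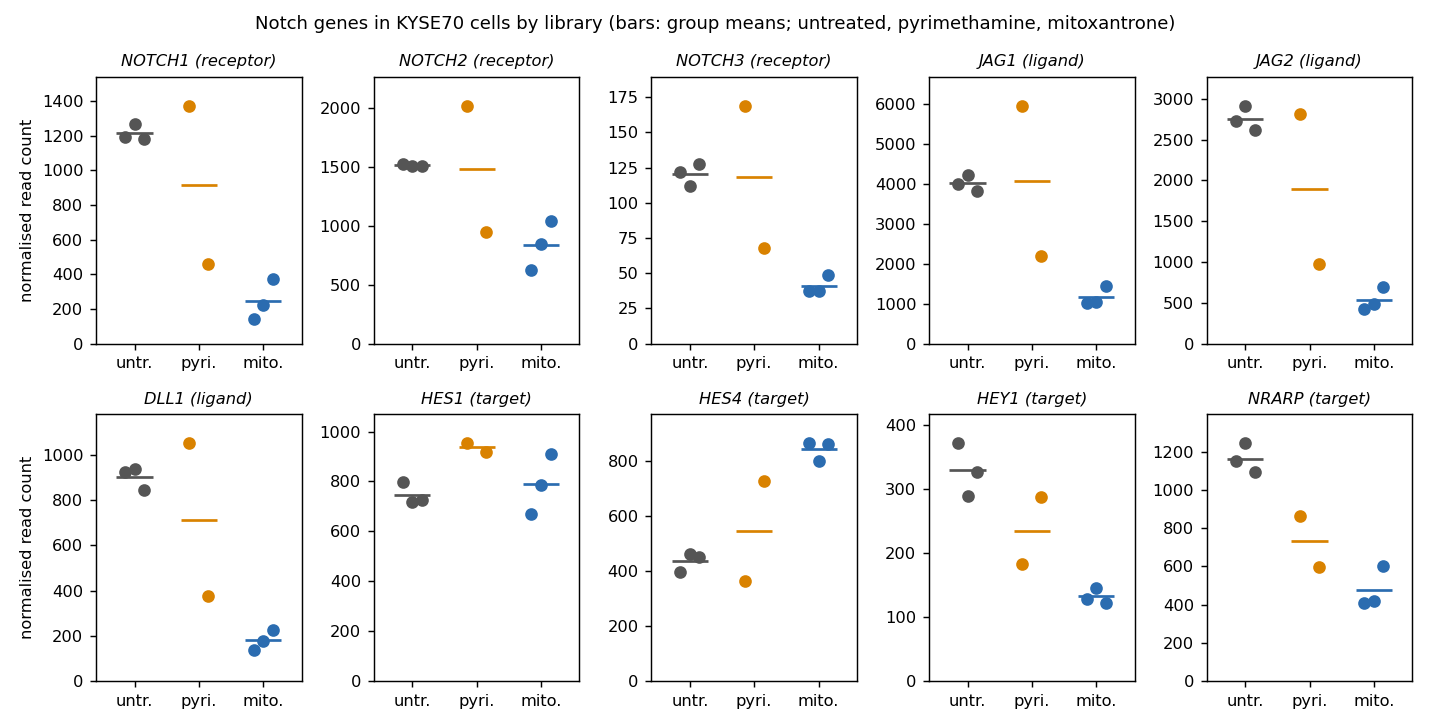
Normalised read count (vertical axis, from 0 on a linear scale) of each of the 10 Notch genes in untreated (untr., grey, n = 3), pyrimethamine (pyri., orange, n = 2) and mitoxantrone (mito., blue, n = 3) libraries, with a point per library and a bar at the group mean. The mitoxantrone points lie below all untreated points for 8 genes, above them for HES4 and around them for HES1, while the pyrimethamine points of the receptors and ligands lie far apart.

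With mitoxantrone all 3 receptors, all 3 ligands and the targets HEY1 and NRARP were lower, HES4 was higher, and no change of HES1 was detected. These calls are on the deposited scaling, and a correction for exon length and GC content, described below, ended those of NOTCH2 and NOTCH3 and made HES1 lower. In limma, 9 of the 10 genes passed an adjusted p of 0.05, 1 higher and 8 lower, where 54.9% of all 15350 tested genes passed, 26.8% higher and 28.1% lower. The median log2 fold change of the 10 genes was -1.42, beside 0.00 over all tested genes. The libraries of the groups did not overlap for 9 of the 10, a property that 79.9% of tested genes had. In RNA from whole cultures, fewer cells of a type and less RNA per cell cannot be told apart, and every value is relative to the other genes of its library.

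Among the receptors, NOTCH1, the main receptor of squamous epithelium (chromosome 9, 136494433 to 136545786, GRCh38), had the largest fold of the 3. Its normalised read counts were 1195, 1267 and 1183 untreated and 142, 223 and 375 after mitoxantrone. All mitoxantrone libraries were below all untreated ones, and they differed among themselves more than the untreated ones did. The mean was 4.92-fold lower, from 1215 ± 45.6 to 247 ± 118 (log2 fold change -2.41 ± 0.44 SE, adjusted p = 0.00346). NOTCH2 (chromosome 1, 119911553 to 120069626), a broadly expressed receptor, had 1526, 1502 and 1507 untreated and 621, 842 and 1039 with mitoxantrone. The groups did not overlap, and the mean was 1.81-fold lower (-0.89 ± 0.30, adjusted p = 0.0332). That call was lost in 5 of 8 fits that left out a library, with an adjusted p of up to 0.121. NOTCH3 (chromosome 19, 15159038 to 15200981), the receptor with the fewest reads here, had 122, 112 and 128 untreated and 37.4, 37.4 and 48.5 with mitoxantrone. These mitoxantrone values rest on 25 to 44 reads, and the mean was 2.93-fold lower (-1.54 ± 0.34, adjusted p = 0.00667). After the length and GC correction the log2 fold change was -0.97 for NOTCH1, 0.14 for NOTCH2 (adjusted p = 0.389) and -0.16 for NOTCH3 (adjusted p = 0.474).

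The ratios between receptors differed from the untreated ones. NOTCH1 per NOTCH2, a ratio taken within each library, was 0.783, 0.844 and 0.785 untreated and 0.229, 0.265 and 0.361 with mitoxantrone. The ratio was lower in every mitoxantrone library than in every untreated one (log2 difference -1.52, and -1.11 after the length and GC correction described below). The exact two-sided permutation test gave p = 0.1, or 0.117 adjusted over the 14 tests of ratios, and 0.1 is the smallest p that 20 splits of 3 against 3 allow. NOTCH3 per NOTCH2 was 0.0801, 0.0744 and 0.0847 untreated and 0.0602, 0.0445 and 0.0467 with mitoxantrone (log2 difference -0.65, and -0.30 after that correction, p = 0.1 in the same exact test).

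All 3 ligands were lower with mitoxantrone. JAG1 (chromosome 20, 10637684 to 10673999), a ligand of epithelial cells, had 4002, 4213 and 3818 normalised read counts untreated and 1012, 1036 and 1437 with mitoxantrone. The groups were far apart, and the mean was 3.45-fold lower, from 4011 ± 198 to 1162 ± 239 (log2 fold change -1.80 ± 0.34, adjusted p = 0.00377). JAG2 (chromosome 14, 105140981 to 105168824), the second Jagged ligand, had 2725, 2917 and 2624 untreated and 422, 483 and 697 with mitoxantrone. Its mean was 5.16-fold lower (-2.40 ± 0.37, adjusted p = 0.00168), with a log2 fold change of -1.13 after the length and GC correction. One exon stretch of 469 bases of JAG2 overlaps AL512356.1 on the same strand, a gene that the table does not list, so reads of that stretch are uncertain. DLL1 (chromosome 6, 170282206 to 170306565), a Delta ligand, had 925, 936 and 845 untreated and 135, 178 and 224 with mitoxantrone. No library of the groups overlapped, and the mean was 5.04-fold lower (-2.36 ± 0.36, adjusted p = 0.00168).

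The targets split. HES1 (chromosome 3, 194136145 to 194138732), the classical Notch-induced repressor, had 798, 719.5 and 724 untreated and 668, 786 and 909 with mitoxantrone. These ranges overlap, and the log2 fold change was 0.07 (95% interval -0.30 to 0.43, adjusted p = 0.732), against -0.77 (adjusted p = 0.0275) after the length and GC correction. HES4 (chromosome 1, 998962 to 1000172), a close relative of HES1, had 395, 460.4 and 451 untreated and 864, 800.5 and 859 with mitoxantrone. Every mitoxantrone library was above every untreated one, and the mean was 1.93-fold higher (0.95 ± 0.25, adjusted p = 0.0131). Without untreated replicate 1 its adjusted p was 0.051.

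HEY1, a repressor of the HEY branch, had 372, 289 and 328 normalised read counts untreated and 129, 146 and 122 with mitoxantrone. The groups did not overlap, and the mean was 2.49-fold lower (log2 fold change -1.31 ± 0.22, adjusted p = 0.00233). NRARP (chromosome 9, 137300482 to 137302251), which binds the active Notch complex and limits it, had 1151, 1245 and 1092 untreated and 408, 421 and 602 with mitoxantrone. Its mean was 2.44-fold lower (-1.30 ± 0.21, adjusted p = 0.00208), again with no overlap. Within libraries, HES4 per HES1 went from 0.495, 0.640 and 0.623 untreated to 1.29, 1.02 and 0.945 with mitoxantrone (log2 difference 0.88). NRARP per HES1 went from 1.44, 1.73 and 1.51 to 0.611, 0.535 and 0.663 (-1.37), and HEY1 per HES1 moved as far (-1.37). Each of these 3 ratios had no overlap between groups and the smallest exact two-sided permutation p that the design allows, 0.1. All 3 share HES1, and how often ratios of other gene pairs would not overlap was not counted. After the length and GC correction the log2 differences of the 3 ratios were 1.88, -0.28 and -0.99.

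**Figure D2:**
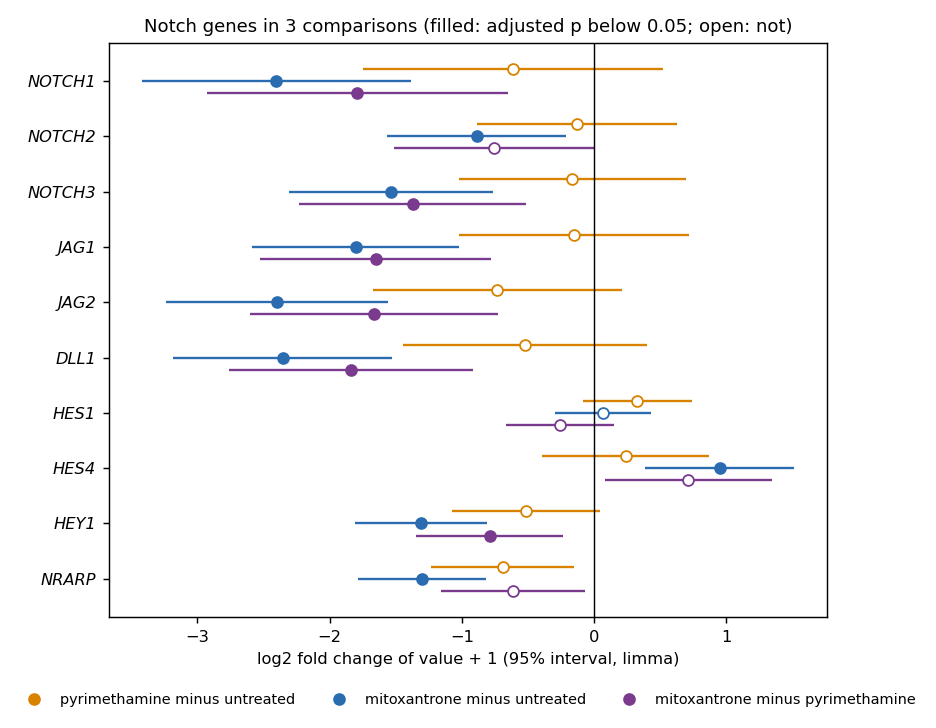
Log2 fold change of value + 1 (horizontal axis) with its 95% interval for each gene in the 3 comparisons, filled where the adjusted p was below 0.05. The mitoxantrone against untreated points run from -2.41 (NOTCH1) to 0.95 (HES4) with 9 of 10 filled, and no pyrimethamine against untreated point is filled.

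The mitoxantrone changes of the receptors, JAG2 and HES1 moved most with a correction for gene length and base composition. Those of JAG1, DLL1, HEY1, HES4 and NRARP moved less. The correction removed the trend of each library with exon length and GC content and was fitted on 14021 genes. With it, 8 of the 10 genes passed, 1 higher and 7 lower, where 52.2% of all genes passed, and the median was -1.01 beside -0.06 over all genes. DLL1 (-1.94, adjusted p = 0.0011), JAG1 (-1.33, adjusted p = 0.00127), JAG2 (-1.13, adjusted p = 4.46e-04) and NOTCH1 (-0.97, adjusted p = 0.00588) were still lower, each by less than on the deposited scaling. HEY1 (-1.76, adjusted p = 1.48e-04), NRARP (-1.05, adjusted p = 0.00231) and HES4 (1.11, adjusted p = 0.00169) also kept their direction. NOTCH2, whose exons sum to 16074 bases, and NOTCH3 no longer passed, and HES1, with 1578 bases, passed as lower. JAG2 per JAG1 was lower with mitoxantrone as deposited (0.681, 0.692 and 0.687 against 0.417, 0.466 and 0.485, log2 difference -0.59) and higher after the correction (0.20). The part of length in these results was not tested further.

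**Figure D3:**
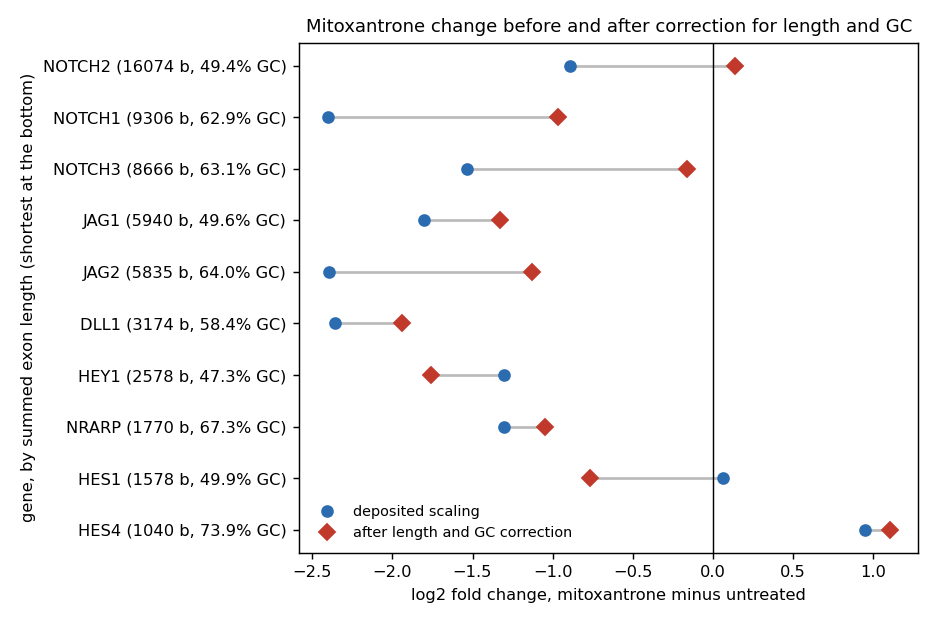
Log2 fold change of mitoxantrone against untreated cells (horizontal axis) as deposited (blue circles) and after correction for exon length and GC content (red diamonds), with genes ordered from the shortest summed exon length at the bottom (HES4, 1040 bases) to the longest at the top (NOTCH2, 16074 bases). The 6 longest genes move towards or past 0, whereas HEY1 and HES1 move down.

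Reads of NOTCH2 can also match its partial copies, whose treatment in counting is not given in the sources used here. NOTCH2NLB, named after its values were seen, went from a mean of 168 untreated to 509.5 with mitoxantrone (log2 fold change 1.60, adjusted p = 0.00215). NOTCH2NLA, named likewise, went from 54.0 to 93.9 (0.85, adjusted p = 0.047). The values of NOTCH2 and of these copies are uncertain to the extent that they share reads.

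No gene of the 10 passed the test for pyrimethamine. The 2 pyrimethamine libraries lay on opposite sides of the untreated ones for 6 genes (NOTCH1, NOTCH2, NOTCH3, JAG1, DLL1 and HES4). How many of all tested genes were split in this way was not counted, so the split is not taken as particular to these genes. The pyrimethamine and untreated groups did not overlap for 3 of the 10 genes and for 32.7% of all tested genes. In limma 0 of 10 genes passed, where 3.60% of all tested genes did, 2.29% higher and 1.31% lower. NRARP was the 1 gene with an unadjusted p under 0.05, and edgeR and DESeq2 on recovered reads also called 0. The median log2 fold change was -0.34, beside -0.08 over all tested genes. Replicate 1 was above every untreated library for 6 genes (NOTCH1, NOTCH2, NOTCH3, JAG1, DLL1 and HES1) and below for 3 (HES4, HEY1 and NRARP), where 42.1% and 44.9% of tested genes were above and below. Replicate 2 was above for HES1 and HES4 and below for the other 8, where 44.3% and 42.8% were.

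The receptors were high in pyrimethamine replicate 1 and low in replicate 2. NOTCH1 had 1374 and 458 normalised read counts, on either side of the untreated libraries (log2 fold change -0.61, 95% interval -1.75 to 0.52, adjusted p = 0.554). NOTCH2 had 2017 and 943 (-0.13, -0.89 to 0.63, adjusted p = 0.869), and NOTCH3 had 169 and 67.9 (-0.16, -1.02 to 0.69, adjusted p = 0.853). The intervals reach from a clear decrease to an increase, so no change was detected and neither direction is excluded within them. Among the ligands, JAG1 had 5952 and 2188 (-0.15, -1.02 to 0.72, adjusted p = 0.870). JAG2 had 2815, inside the untreated range, and 974 (-0.73, -1.67 to 0.21, adjusted p = 0.379). DLL1 had 1053 and 374 (-0.52, -1.44 to 0.40, adjusted p = 0.534). All 6 receptor and ligand genes were thus higher in replicate 1 than in replicate 2.

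Of the targets, HES1 and NRARP shared that order, and HES4 and HEY1 did not. HES1 had 954 and 919.5, both above every untreated library (0.33, -0.08 to 0.74, adjusted p = 0.366). HEY1 had 183 and 287, both below every untreated library (-0.52, -1.07 to 0.04, adjusted p = 0.295), and it was lower in replicate 1. NRARP had 863 and 598, both below as well (-0.69, -1.24 to -0.15, adjusted p = 0.153). These 3 genes were the ones whose groups did not overlap, a property of 32.7% of tested genes. HES4 had 362 and 727, on either side of the untreated libraries (0.24, -0.39 to 0.87, adjusted p = 0.695).

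Each pyrimethamine library taken alone gave calls, with the spread borrowed from the other groups. Without replicate 1, 8 of 10 genes passed, with HES4 higher, 7 lower and HES1 and HEY1 not called, where 47.4% of all genes passed. Without replicate 2, JAG1 was higher (0.57, adjusted p = 0.0132) and HEY1 lower (-0.84, adjusted p = 0.00505), where 49.3% of all genes passed. JAG1 was therefore called in opposite directions by the 2 libraries. After the length and GC correction 1 gene passed, JAG2, as lower (-0.76, adjusted p = 0.0161), where 11.6% of all genes passed. Of 7 ratios taken within libraries, 5 did not overlap with the untreated ones. Several of the 7 share a gene, and ratios of other gene pairs were not taken, so this count is not read as particular to them. JAG2 per JAG1 was 0.473 and 0.445 with pyrimethamine, both below the untreated 0.681 to 0.692 (log2 difference -0.58, -0.52 after the correction). NRARP per HES1 was 0.904 and 0.650, both below the untreated 1.44 to 1.73 (log2 difference -1.02, -0.97 after the correction). The other 3 were also below the untreated libraries, at 0.681 and 0.485 for NOTCH1 per NOTCH2, 0.177 and 0.171 for DLL1 per JAG1 and 0.192 and 0.312 for HEY1 per HES1. The exact two-sided permutation test gave p = 0.1 for each of the 5, or 0.117 adjusted over the 14 tests, and 0.1 is the smallest p that 10 splits of 2 against 3 allow.

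**Figure D4:**
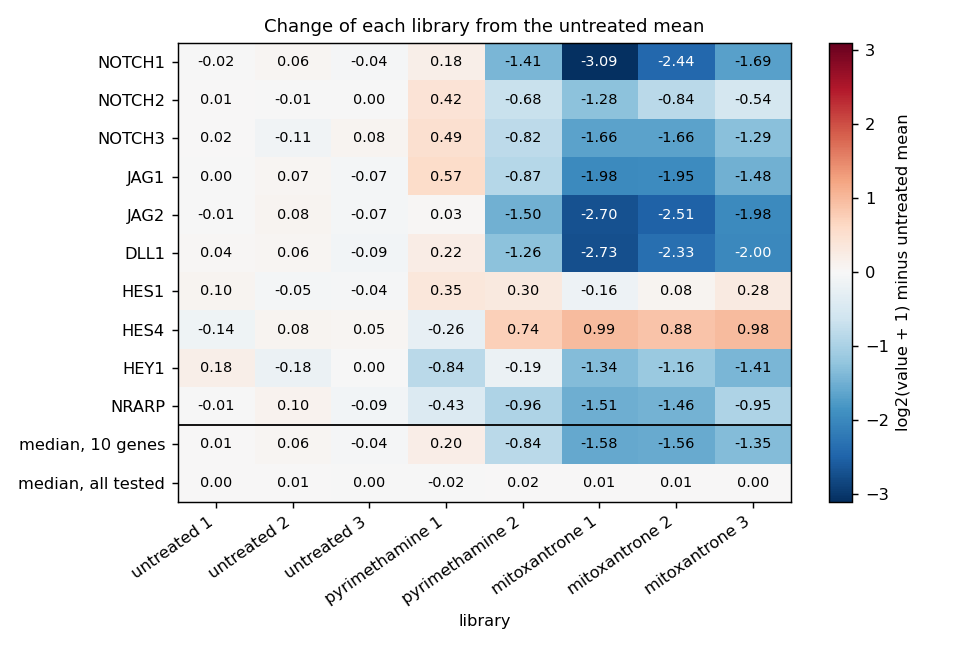
Change of each of the 10 genes in each library from the untreated mean, as log2(value + 1) (colour and printed values), with the median over the 10 genes and over all tested genes in the last rows. The member median is 0.20 in pyrimethamine replicate 1, -0.84 in replicate 2 and -1.58, -1.56 and -1.35 in the mitoxantrone libraries, while the median over all tested genes stays between -0.02 and 0.02.

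Set directly against pyrimethamine, at the single dose of each compound, mitoxantrone libraries were lower for 6 genes. NOTCH1 (log2 difference -1.79, adjusted p = 0.0287), NOTCH3 (-1.37, adjusted p = 0.0281), JAG1 (-1.65, adjusted p = 0.0234), JAG2 (-1.66, adjusted p = 0.0248), DLL1 (-1.84, adjusted p = 0.0222) and HEY1 (-0.79, adjusted p = 0.0361) passed, all lower with mitoxantrone. That is 6 of 10 where 41.0% of tested genes passed, 19.9% lower and 21.2% higher. NOTCH2 (-0.76, adjusted p = 0.0905), NRARP (-0.61, adjusted p = 0.0655), HES4 (0.71, adjusted p = 0.0652) and HES1 (-0.26, adjusted p = 0.246) did not pass. The groups did not overlap for 8 of the 10 genes, with NOTCH2 and NRARP the exceptions, where 63.3% of tested genes did not overlap. In fits on fewer libraries the share of all tested genes passing between the compounds was not counted. Their counts are thus not taken as particular to these genes. The count of 6 rests on all libraries. It was 0 without mitoxantrone replicate 1 or without replicate 2, 4 without replicate 3, 3 without each untreated library in turn, 5 without pyrimethamine replicate 1 and 8 without pyrimethamine replicate 2. It was also 0 when only these groups were fitted. After the length and GC correction it was 5, with JAG1 (-1.09), DLL1 (-1.38), HEY1 (-1.22) and HES1 (-1.08) lower and HES4 (0.77) higher, where 29.4% of all genes passed.

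Other genes of the pathway were read from 6 lists that together hold 58 genes, of which 57 were in the table and 51 were tested. With mitoxantrone 26 of the 51 passed, 5 higher and 21 lower, with a median of -0.55, where 54.9% of all tested genes passed. The counts fell to 17 without untreated replicate 2 and to 17 without mitoxantrone replicate 1, where the share of all tested genes was not counted. After the length and GC correction 33 passed, 12 higher and 21 lower, where 52.2% of all genes passed. With pyrimethamine 0 of 51 passed in limma on the deposited scaling, where 3.60% of all tested genes did, and 8 had an unadjusted p under 0.05. For the same comparison edgeR called 0 and DESeq2 called 5 (DTX3, DTX3L and HES2 higher, HEYL and KRT1 lower). Replicates 1 and 2 had 101 and 59.7 for DTX3, 192 and 120.3 for DTX3L and 616 and 266 for HES2, each above every untreated library.

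In the list of the nuclear complex with its coactivators and corepressors, 9 of 12 tested genes were lower with mitoxantrone and 0 higher, where 28.1% and 26.8% of all tested genes were, and the median was -1.51 beside 0.00. CREBBP, a histone acetyltransferase and coactivator, had 1113, 1033 and 1193 normalised read counts untreated and 215, 228.5 and 388 with mitoxantrone (log2 fold change -2.05 ± 0.35, adjusted p = 0.00263). MAML2, a Mastermind coactivator, fell from a mean of 173 to 37.8 (-2.20, adjusted p = 0.00504). RBPJ itself, at means of 955 and 841, did not pass (-0.18, adjusted p = 0.470). The count was again 9 lower and 0 higher after the length and GC correction, with a median of -0.92 beside -0.06 over all genes, of which 52.2% passed in either direction. The log2 fold change was then -0.87 for CREBBP and -1.82 for MAML2.

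Among 12 tested genes of ligand and receptor ubiquitination and turnover, 6 were lower and 0 higher (median -0.69), so that 6 of 12 passed where 54.9% of all tested genes did. NEURL1B, a ubiquitin ligase related to the fly ligand regulator Neuralized, had 894, 826 and 784 untreated and 130, 183 and 193 with mitoxantrone (-2.32, adjusted p = 0.00161). MIB1, the ubiquitin ligase that ligand-sending cells need, fell from a mean of 1094 to 505 (-1.12, adjusted p = 0.00377), and DTX4, a Deltex ligase, from 84.4 to 12.9 (-2.69, adjusted p = 0.00369). After the length and GC correction this list had 6 lower and 3 higher, where 52.2% of all genes passed in either direction. The log2 fold change was then -1.33 for NEURL1B, -0.83 for MIB1 and -2.02 for DTX4.

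Receptor processing and glycosylation moved both ways, with 3 higher and 4 lower of 14 (median 0.09), where 26.8% and 28.1% of all tested genes were. APH1B, a subunit of gamma-secretase, rose from a mean of 205 to 710 (1.80, adjusted p = 0.0030). PSENEN, another subunit of that protease, named after its values were seen, was also higher (1.52, adjusted p = 0.0074). LFNG, a Fringe glycosyltransferase that changes which ligands a receptor answers to, had 1070, 1109 and 991 untreated and 337, 389 and 365 with mitoxantrone (-1.54, adjusted p = 6.83e-04). FURIN, the convertase that cuts the receptor precursor, fell from 747 to 228 (-1.73, adjusted p = 0.0042). PSEN2 (-0.91, adjusted p = 0.0059) and the sheddase ADAM17 (-0.57, adjusted p = 0.043), also named after their values were seen, were the other decreases. After the length and GC correction 5 genes of this list were higher and 4 lower, where 52.2% of all genes passed. The log2 fold change was then 1.68 for APH1B, 0.92 for PSENEN, -0.86 for LFNG, -0.78 for FURIN, -0.92 for PSEN2 and -0.81 for ADAM17.

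Of 3 tested receptors and ligands outside the 10 genes, DLL3, a ligand that acts on receptors of its own cell, was higher with mitoxantrone (131, 122 and 144 against 314, 345 and 351, log2 fold change 1.34, adjusted p = 0.0182). It lost that call in 5 of 8 fits that left out a library. Of 5 tested HES and HEY relatives, HEYL had 45.0, 54.7 and 49.8 untreated and 4.49, 7.75 and 1.10 with mitoxantrone, where 3 reads amount to 3.31 to 4.49 (-3.44, adjusted p = 0.0017). HES6, a family member that opposes HES1, was higher (149 to 295, 0.98, adjusted p = 0.0376) and lost the call in 6 of 8 such fits. Of 5 tested keratinocyte genes linked to Notch, 1 passed, where 54.9% of all tested genes did. TP63, the basal-layer regulator that opposes Notch in keratinocytes, had 3414, 3323 and 3311 untreated and 824, 918 and 932 with mitoxantrone (-1.91 ± 0.19, adjusted p = 4.25e-04). After the length and GC correction the log2 fold change was 1.82 for DLL3, -2.83 for HEYL, 1.31 for HES6 and -1.67 for TP63.

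Between the compounds 22 of the 51 genes passed, 5 higher and 17 lower with mitoxantrone (median -0.56), where 41.0% of all tested genes passed. That count was 0 without mitoxantrone replicate 1 or without replicate 2, 6 without replicate 3, 3 without each untreated library in turn, and 14 and 44 without pyrimethamine replicates 1 and 2. The share of all tested genes passing in those fits was not counted. Among the genes named for mitoxantrone, NEURL1B had 684.5 and 247 in pyrimethamine replicates 1 and 2, and TP63 had 3166 and 2030. HEYL had 17.7 and 12.3 and PSEN2 had 264 and 378.5, and these values were all below every untreated library. None of these genes passed for pyrimethamine in limma on the deposited scaling, where the groups did not overlap for 32.7% of all tested genes. After the length and GC correction NEURL1B passed as lower with pyrimethamine (-1.10, adjusted p = 0.00913), where 11.6% of all genes passed. FURIN, MIB1 and ADAM17 were above every untreated library in replicate 1 and below in replicate 2. APH1B, PSENEN, DLL3 and HES6 went the reverse way. CREBBP, MAML2, LFNG and DTX4 were below in replicate 2 only, and RBPJ in replicate 1 only. Both comparisons with untreated cells share the same untreated libraries.

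**Figure D5:**
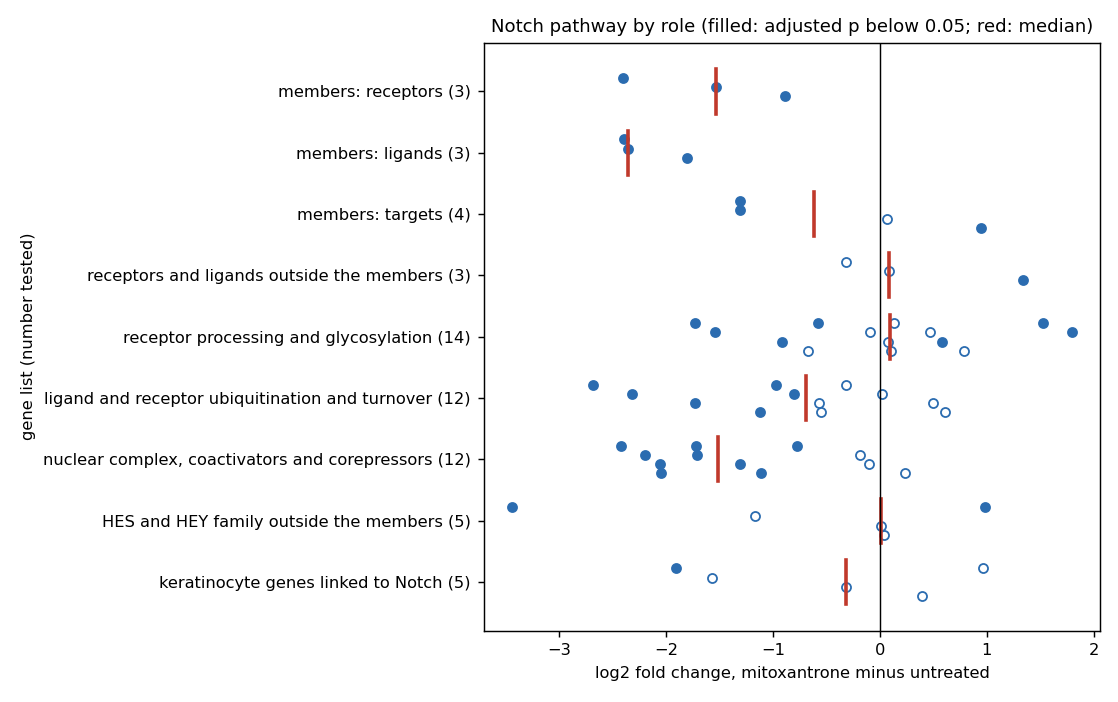
Log2 fold change of mitoxantrone against untreated cells (horizontal axis) for each tested gene, in rows by role with the number tested in brackets, filled where the adjusted p was below 0.05 and with a red bar at the row median. Row medians are -2.36 for the 3 ligands, -1.54 for the 3 receptors, -0.62 for the 4 targets and -1.51 for the nuclear complex.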

How the data were processed

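The submitters' processing notes name STAR 2.6.90c, featureCounts 1.5.1, cutadapt 1.12, FastQC 0.11.5 and hg38. Annotation and strand setting: not given in the sources used here. The deposited values are a normalised signal, gene counts that the authors divided by size factors. Whole reads were recovered, with 100% of values whole within 0.1 read. Gene lengths came from GENCODE 29 (GRCh38), by symbol for 20808 genes and another symbol for 683, with 6790 unmatched. limma 3.58.1 (R 4.3.3) was run on log2(value + 1), which understates changes of low genes, for 15350 genes with a mean of at least 10. All libraries shared 1 spread per gene (5 residual degrees of freedom), which assumes equal spread in the groups. Tests were two-sided with Benjamini-Hochberg adjustment over all tested genes and a threshold of 0.05, and were checked on simulated data. edgeR 4.0.16 and DESeq2 1.42.0 on recovered reads, other scalings, pseudocounts, filters, a length and GC correction (loess per library), replicate blocks and leaving out each library were alternatives. Beyond the 10 genes, up to 3 called genes with the smallest adjusted p per list were named, and some genes that this rule takes are not reported here. The 10 genes and the lists were chosen with earlier results of these data known.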

Additional observations from a re-analysis of the deposited data

How the results depend on the processing

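Over 20 alternatives, the 10 genes kept their direction and side of the threshold in 188 of 200 values for mitoxantrone, 179 of 200 for pyrimethamine and 145 of 200 between the compounds. Leaving out 1 library at a time gave 7 to 9 called genes for mitoxantrone, 0 to 8 for pyrimethamine and 0 to 8 between the compounds, and 17 to 38, 0 to 27 and 0 to 44 of the other pathway genes. In the same fits the pyrimethamine log2 fold changes ran from -1.41 to 0.18 (NOTCH1), -0.68 to 0.42 (NOTCH2), -0.82 to 0.49 (NOTCH3), -0.87 to 0.57 (JAG1), -1.50 to 0.0323 (JAG2), -1.26 to 0.22 (DLL1) and -0.26 to 0.74 (HES4), and that of HES1 with mitoxantrone from -0.0415 to 0.18. The pyrimethamine log2 ratios ran from -0.14 to 0.0707 (NOTCH3 to NOTCH2) and from -0.62 to 0.44 (HES4 to HES1).

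With the length and GC correction 1 of the 10 genes was called for pyrimethamine, as were 4 other pathway genes (DTX3 and HES2 higher, KRT1 and NEURL1B lower). Between the compounds 13 other pathway genes were called with it. Signs turned for NOTCH2 with mitoxantrone against untreated (0.14) and against pyrimethamine (0.23), NOTCH3 between the compounds (0.0156), HES1 with mitoxantrone (-0.77), the JAG2 to JAG1 ratio with mitoxantrone (0.20) and the HES4 to HES1 ratio with pyrimethamine (0.0312). With edgeR the pyrimethamine signs turned for NOTCH2 (0.0224), NOTCH3 (0.0416), JAG1 (0.0779) and the NOTCH3 to NOTCH2 ratio (0.0192), and with DESeq2 for JAG1 (0.0214) and that ratio (0.0173). DESeq2 called 5 other pathway genes for pyrimethamine, and without a filter on low values 14 were called between the compounds. With only the groups compared, 0 of the 10 and 0 of the other pathway genes were called between the compounds. With a replicate block, numbered by the titles or by the descriptions, these counts were also 0 and 0, and NOTCH2 with mitoxantrone had adjusted p-values of 0.058 and 0.078. Same-numbered untreated and mitoxantrone libraries did not deviate together (correlations 0.053, -0.008 and 0.018), so the numbers are not taken as pairs. The cause of these shifts was not tested. The share of all genes passing was counted only as deposited, after the length and GC correction, and for pyrimethamine without each of its libraries.

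The median of all genes moved by over 0.1 from 0 for mitoxantrone without the filter (0.22), for pyrimethamine with a mean of at least 50 (-0.13) and between the compounds with edgeR (-0.12). Depth limits NOTCH3, at 25 to 44 reads with mitoxantrone.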

Other observations

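KRT1, a keratin of the differentiated layers of squamous epithelium that Notch activity is known to raise, was singled out after its values were seen. It had 157, 110 and 42.5 normalised read counts in the untreated libraries and was at 0 in both pyrimethamine libraries, where 3 reads would amount to 1.71 and 3.09. The mitoxantrone libraries held 214, 63.3 and 1.10. DESeq2 on recovered reads called it lower with pyrimethamine (adjusted p = 0.00101) and limma after the length and GC correction did too (adjusted p = 0.0392), while limma on the deposited scaling did not. Neither KRT10 nor IVL, other differentiation genes of the same list, was below the untreated libraries in both pyrimethamine libraries, although KRT10 was in replicate 1. KRT10 had 1089, 1124.5 and 811 untreated and 281.5 and 1142 in pyrimethamine replicates 1 and 2, and IVL, which was too low to be tested, had 0.919, 1.52 and 2.07 untreated and 17.1 and 1.03 with pyrimethamine.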
